A study of Mus musculus with 6 samples.

Results

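The Notch receptor and ligand genes examined here are 10 genes picked by symbol from an RNA-seq table of 24002 genes: the receptors Notch1, Notch2, Notch3 and Notch4, the ligands Dll1, Dll3, Dll4, Jag1 and Jag2, and Lfng, which encodes an enzyme that modifies the receptors. All 10 symbols were found. R1 mouse embryonic stem cells, cultured with 15% serum replacement and the self-renewal cytokine LIF at 1000 U/ml, were aggregated for 48 h in hanging drops. The resulting embryoid bodies were then kept with retinoic acid up to day 6, at 0.5 mM as the labels give the dose. Protocols of this kind mostly use micromolar doses, and the unit is therefore uncertain. Polyadenylated RNA was sequenced in 3 samples, which share this treatment and this 1 cell line, so the values are levels at day 6 and not changes. The labels do not say that the replicates came from separate cultures, and the spread between them may be technical. Levels are in FPKM, fragments scaled to transcript length and to the mapped fragments of the library, as the authors deposited them, so genes of different length can be set side by side.

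Notch receptors are single-pass membrane proteins that bind Delta-like and Jagged ligands on neighbouring cells. Binding exposes the receptor to cleavage by ADAM proteases and then by gamma-secretase, and the freed intracellular domain enters the nucleus, where it binds Rbpj and Mastermind-like coactivators and switches on Hes and Hey repressor genes. In the embryonic spinal cord, newly forming neurons present Delta-like ligands, and Notch activity in their neighbours keeps those cells as progenitors, a process called lateral inhibition. Lfng adds a sugar to fucose residues on the receptors, which favours their response to Delta-like over Jagged ligands.

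Markers of both neural progenitors and neurons were present in the RNA. Every replicate had at least 1 FPKM for 10 of 10 neural progenitor markers, led by Fabp7, Vim and Sox2. The same held for 12 of 12 neuron markers, led by Tubb3, Gap43 and Stmn2. Of all 24002 genes, 50.7% reached this level in every replicate. The labelled cell type is embryonic stem cell. Of 8 pluripotency markers, 3 (37.5%) were at this level, Klf4, Esrrb and Zfp42, while Nanog averaged 0.0879 FPKM and Pou5f1 0.815 FPKM. Extraembryonic endoderm markers were also present, with 16 of 16 at 1 FPKM or more. In such bulk RNA, fewer cells of a type and less RNA per cell cannot be told apart. Read totals are not in the table. Judged from ratios of low values, replicate 1 was sequenced 1.56 times as deeply as replicate 2 and 1.17 times as deeply as replicate 3. On this estimate, which holds only if libraries were not scaled to each other, replicate 2 gives the least precise low values.

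Of the 10 genes, 9 were at 1 FPKM or more in every replicate, against 50.7% of all 24002 genes. At 5 FPKM the count was 6 of 10, against 35.7% of all genes, and at 0.5 FPKM it was 10 of 10, against 54.4%. Their median was 6.27 FPKM, against 1.31 FPKM over all genes of the table. Over the genes at 1 FPKM or more in every replicate the median was 10.01 FPKM. Notch1, Dll1 and Dll3 lay above that last value, and the other 7 lay below it. The set therefore holds genes of middle and low level, from the 81.3% of all genes that Notch1 exceeded to the 46.1% that Notch4 exceeded. From high to low the order was Notch1, Dll1, Dll3, Lfng, Jag2, Notch3, Notch2, Jag1, Dll4 and Notch4.

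**Figure D1:**
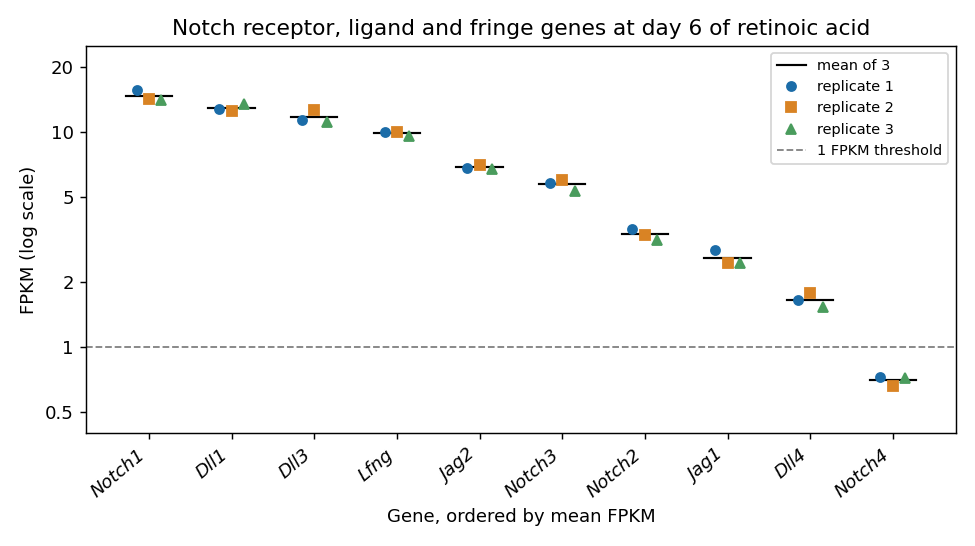
FPKM of each gene in each of the 3 RNA-seq replicates on a log axis, with the mean as a bar and the threshold of 1 FPKM as a dashed line. The replicates of a gene lie close together, Notch4 alone is under the line, and the points of Dll1 and Dll3 overlap.

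Among the receptors, Notch1 was the most abundant. Notch1, the main receptor of neural progenitors, stood at 15.6, 14.2 and 14.0 FPKM in replicates 1, 2 and 3 (14.6 ± 0.889, SD, n = 3). Notch3, a receptor known from progenitors and from the mural cells of vessels, stood at 5.80, 6.00 and 5.32 FPKM (5.71 ± 0.348). Notch2, a broadly used receptor, stood at 3.54, 3.31 and 3.16 FPKM (3.34 ± 0.195). No replicate of one of these genes reached into the range of another. Notch4, known mostly from endothelium, stood at 0.725, 0.661 and 0.719 FPKM (0.702 ± 0.0357), below the threshold in every replicate.

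Within each library Notch1 made up most of the receptor RNA by FPKM. Its share of the summed FPKM of the 4 receptor genes was 60.8%, 58.8% and 60.3% in replicates 1, 2 and 3. Notch3 held 23.5% ± 1.18 (SD, n = 3), Notch2 13.7% ± 0.0846 and Notch4 2.89% ± 0.193. With 1 FPKM added to each gene the Notch4 share was 6.01%. Notch1 was 4.38 ± 0.0708 times as high as Notch2 and 2.56 ± 0.170 times as high as Notch3. These shares do not depend on how libraries were scaled to each other, but a share of transcripts is not a share of receptor protein.

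The levels of Notch4 and Notch3 can be set beside markers of the vessel cells they are known from. Of 10 endothelial markers, 1 was at 1 FPKM or more in every replicate, against 50.7% of all genes. That gene was Flt1, at 3.47, 5.47 and 5.20 FPKM, while Pecam1 averaged 0.0700 FPKM and Tie1 was listed at 0, 0 and 0.0209 FPKM. The list summed to between 5.11 and 7.25 FPKM per library, and Flt1 made up most of it. Of 8 mural cell markers, 1 was at the threshold, Anpep at 1.42 ± 0.193 FPKM (SD, n = 3), and the list summed to between 2.62 and 3.25 FPKM, less than Notch3 alone in every library. The part of vessel cells in the Notch4 and Notch3 levels was not tested.

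The Delta-like ligands Dll1 and Dll3 were the 2 most abundant of the 5 canonical ligand genes. Dll1, the ligand that newly forming neurons present, stood at 12.8, 12.5 and 13.4 FPKM in replicates 1, 2 and 3 (12.9 ± 0.466, SD, n = 3). Dll3, a divergent family member that is known to act within the cell that makes it and not to activate Notch on neighbours, stood at 11.3, 12.5 and 11.1 FPKM (11.7 ± 0.786). Their ranges overlapped: Dll1 was higher in replicates 1 and 3, and in replicate 2 the ratio of Dll1 to Dll3 was 0.997. They were the only neighbours in the order of the 10 genes whose ranges overlapped.

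The promoters of Dll1 and Dll3 are shown because these 2 ligand genes stood at like levels and because proneural factors, which are known to activate Delta-like genes, bind E-boxes. The sequences are the 250 bases before the outermost start of each gene, read 5′ to 3′ on the gene's strand from the RefSeq promoter table, build GRCm38.p6, with the letters of E-boxes (CANNTG) and of the Rbpj core (TGGGAA) on either strand in capitals.
Dll1, chr17:15376933-15377182, minus strand: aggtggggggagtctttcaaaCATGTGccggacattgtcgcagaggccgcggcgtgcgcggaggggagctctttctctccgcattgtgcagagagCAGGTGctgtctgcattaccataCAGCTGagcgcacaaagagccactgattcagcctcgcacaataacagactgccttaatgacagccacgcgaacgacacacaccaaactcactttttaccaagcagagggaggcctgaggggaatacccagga
Dll3, chr7:28301786-28302035, minus strand: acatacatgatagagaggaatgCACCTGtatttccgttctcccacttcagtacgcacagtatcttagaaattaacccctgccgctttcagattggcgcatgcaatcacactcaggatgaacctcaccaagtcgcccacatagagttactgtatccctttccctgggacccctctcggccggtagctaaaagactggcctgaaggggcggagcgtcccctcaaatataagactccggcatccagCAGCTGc
Dll1 held 3 E-boxes, starting 229, 155 and 132 bases before the start, and Dll3 held 2, starting 228 and 7 bases before it. The window of the other Delta-like gene, Dll4, held 0. Dll1 has 2 starts in the promoter table, and only the window of the outermost was searched. An E-box lay in 5 of the 10 genes' windows, and in 66.2% of 32851 windows of the same length. The Rbpj core lay in neither of the 2 windows shown. A match is a description of letters, not of a bound site.

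The Jagged ligands and Dll4 were lower. Jag2 stood at 6.76, 7.01 and 6.74 FPKM (6.84 ± 0.155, SD, n = 3), with the smallest coefficient of variation of the 10 genes, 2.26%. Jag1, which marks other progenitor domains of the neural tube than Dll1, stood at 2.83, 2.45 and 2.47 FPKM (2.58 ± 0.214). Its coefficient of variation, 8.28%, was the largest of the 10, and replicate 1 stood above both others. Dll4, known from endothelium and from V2 interneuron progenitors, stood at 1.66, 1.79 and 1.54 FPKM (1.66 ± 0.125).

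By FPKM, Dll1 held 36.2% ± 1.82 of the summed level of the 5 ligand genes (SD, n = 3), Dll3 32.7% ± 1.66, Jag2 19.2% ± 0.123, Jag1 7.25% ± 0.658 and Dll4 4.66% ± 0.283. The 3 Delta-like genes together held 72.9%, 73.9% and 73.9% in replicates 1, 2 and 3. Dll1 was 5.03 ± 0.463 times as high as Jag1 and 1.89 ± 0.104 times as high as Jag2. The receptor genes summed to 24.4 ± 1.27 FPKM and the ligand genes to 35.6 ± 0.581 FPKM.

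**Figure D2:**
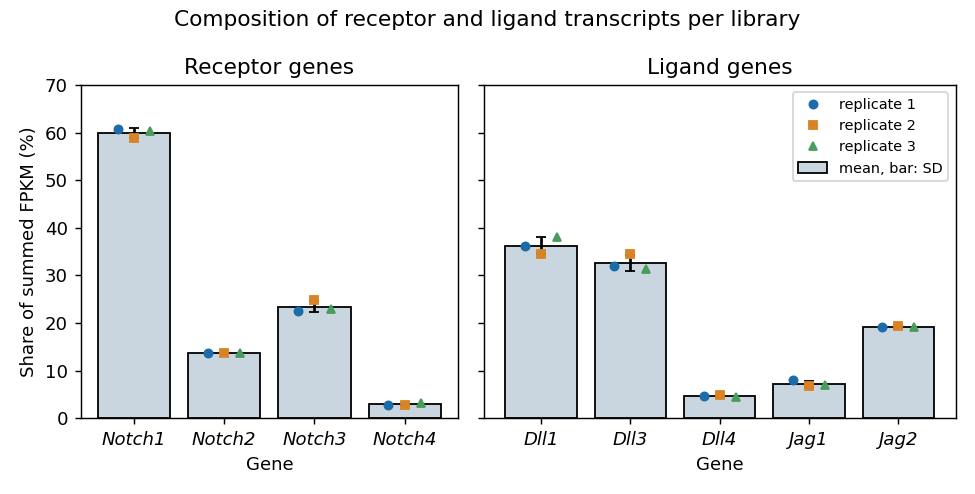
Share of each gene in the summed FPKM of the 4 receptor genes (left) and of the 5 ligand genes (right), in percent. Bars are means of 3 replicates with the SD, and points are replicates. Notch1 holds 60.0% of the receptor sum, and Dll1 and Dll3 hold the 2 largest shares of the ligand sum with overlapping points.

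Dll4 can be set beside markers of the V2 interneurons it is known from. Of 8 such markers, 7 were at 1 FPKM or more in every replicate, against 50.7% of all genes. Among the 7 were Lhx3, which motor neurons also use, and Gata3. Foxn4, the factor known to activate Dll4 in V2 progenitors, averaged 1.77 ± 0.182 FPKM (SD, n = 3), close to Dll4 itself. The part of each cell type in the Dll4 level was not tested. In the RefSeq table Dll4 also overlaps the long noncoding gene Gm14207 by 414 bases, and that gene was listed at 0.308, 0.138 and 0.468 FPKM. The strand used in counting is not given, so reads of the shared bases cannot be told apart. The same limit may hold for 4 other genes that overlap noncoding genes of that table. Notch3 overlaps Gm38585 by 10673 and Gm41568 by 3142 bases, and Notch2 overlaps Gm40103 by 3803 bases. Notch1 overlaps 0610009E02Rik by 1489 and Mir6996 by 61 bases, and Jag2 overlaps Mir6941 by 59 bases. Overlaps are of whole gene spans, introns included, so fewer of these bases may have been counted. Of the noncoding genes of these 4, only Mir6996 and Mir6941 are in the RNA-seq table, listed at 0 in every replicate.

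Lfng stood at 9.99, 9.94 and 9.57 FPKM in replicates 1, 2 and 3 (9.83 ± 0.231, SD, n = 3), between Dll3 and Jag2. Its relatives Rfng and Mfng, which encode the other fringe enzymes, stood at 25.6 ± 1.58 and 5.52 ± 0.587 FPKM. In every library the order was Rfng, Lfng, Mfng, with Lfng at 0.385 ± 0.0222 times Rfng and 1.80 ± 0.225 times Mfng. Lfng, Dll1 and Dll3 are also known from the segmentation clock of presomitic mesoderm. Of 9 markers of that tissue, 1 was at the threshold, Uncx at 1.84 ± 0.0935 FPKM, against 50.7% of all genes. The defining genes T and Msgn1 were listed at 0 in every replicate, and the clock gene Hes7 averaged 0.419 ± 0.212 FPKM. Ripply2, Tbx6 and Mesp2 averaged 0.688, 0.327 and 0.232 FPKM. The part of such cells in the levels of Lfng, Dll1 and Dll3 was not tested.

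The Lfng promoter is shown because it was the single window among the 10 genes with an Rbpj core, which 21.6% of all windows held. Capitals mark the same letters as above.
Lfng, chr5:140607091-140607340, plus strand: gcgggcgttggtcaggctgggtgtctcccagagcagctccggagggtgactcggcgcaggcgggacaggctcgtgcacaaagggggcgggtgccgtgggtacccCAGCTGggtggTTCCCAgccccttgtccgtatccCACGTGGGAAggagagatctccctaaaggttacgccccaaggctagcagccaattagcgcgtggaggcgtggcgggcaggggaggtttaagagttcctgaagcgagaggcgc
The 2 Rbpj cores started 135 and 108 bases before the start, on opposite strands, and the second shares letters with the E-box CACGTG that starts 112 bases before it. The half-site AGGTCA of retinoid receptors, searched on both strands, lay in 0 of the 10 windows and in 14.0% of all windows, which says only that these letters are not in these 250 bases. The N-box CACNAG, a motif of Hes repressors, lay in 5 of the 10 windows and in 36.7% of all. The G and C content of the 10 windows ran from 52% in Dll3 to 87.2% in Jag2, with a median of 52.4% over all windows.

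Neighbours in the order were set against the spread between replicates. Order and spread came from the same 3 libraries, so the counts describe the order and do not test it. The share of separate neighbours over all genes was not computed. Of the 9 neighbouring pairs, 8 had ranges that did not overlap. Among these were Notch1, whose lowest value was 14.0 FPKM, and Dll1, whose highest was 13.4 FPKM, and Notch2, whose lowest value was 3.16 FPKM, and Jag1, whose highest was 2.83 FPKM. The means of Dll1 and Dll3 differed by more than the sum of their SDs, although their ranges overlapped. With 3 paired libraries an exact sign-flip permutation test, two-sided, cannot go below p = 0.25, so no difference in level between genes could pass a threshold of 0.05. Across libraries the highest value of a gene was between 1.04 and 1.16 times its lowest. For 6 of the 10 genes the SD of log2(FPKM + 1) was below the median of the 500 genes nearest in mean level. As many genes lie below a median as above it, so this count does not set the 10 genes apart. Notch1 and Dll3 had a larger SD than 75% and 77.2% of their 500 genes, and Jag2 and Notch4 than 13.4% and 6%.

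Replicate 1 held less endoderm RNA than the others, and the 10 genes did not share that pattern. The extraembryonic endoderm list summed to 511 FPKM in replicate 1, 698 in replicate 2 and 707 in replicate 3, and 15 of its 16 genes were lowest in replicate 1. Lower values there were also seen for genes outside the endoderm list, and which cells made their RNA was not tested. The 3 pluripotency markers that averaged 1 FPKM or more had a median deviation of -0.30 in replicate 1, with Klf4 and Zfp42 lowest there and Esrrb not. The endothelial marker Flt1 stood at -0.33 and the mural marker Anpep at -0.13 in replicate 1. Among 13419 genes that averaged 0.5 FPKM or more, 37% were lowest in replicate 1, and 0 of the 10 Notch genes were. Replicate 3 was lowest for 7 of the 10 genes, against 31% of the 13419, and replicate 2 for 3, against 32.1%. The deviations were small: Notch1 stood 0.09 above its own mean of log2(FPKM + 1) in replicate 1, Jag1 0.10 above, and Dll3 0.10 above in replicate 2. The neural progenitor and neuron markers stood 0.02 and 0.05 above their own means in replicate 1, as list medians. Whether the makeup of the libraries accounts for the deviations of the Notch genes was not tested.

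**Figure D3:**
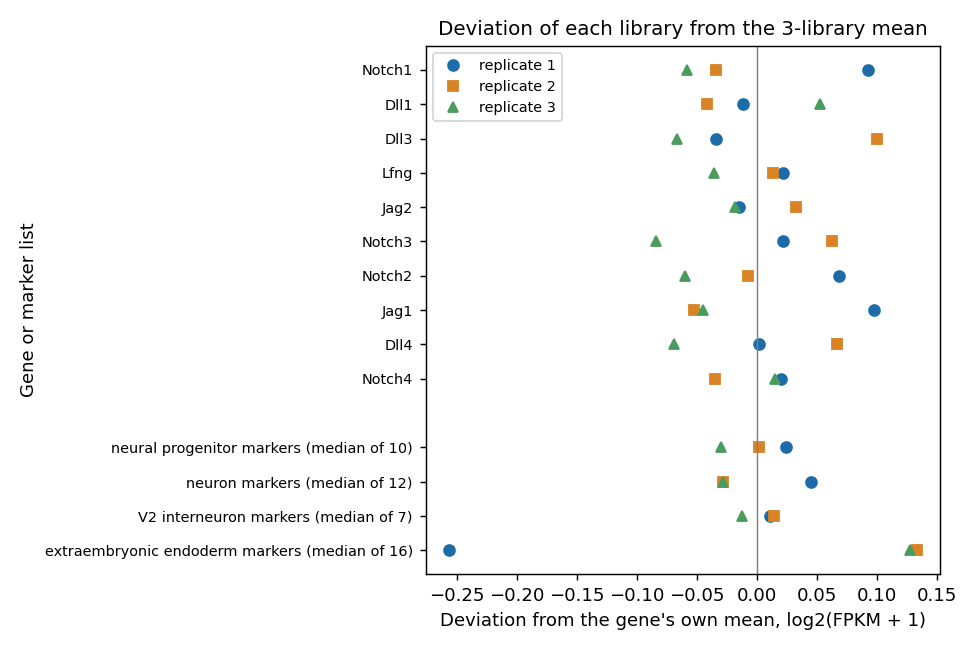
Difference between each replicate and the gene's own 3-replicate mean, in log2(FPKM + 1), for the 10 genes in order of level and, below them, as the median of 4 marker lists. The endoderm list lies at -0.26 in replicate 1, whereas each of the 10 genes lies between -0.08 and 0.10 in every replicate.

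Genes of the other steps of the pathway were counted against the same threshold. Of 87 genes in 9 lists by role, 75 (86.2%) were at 1 FPKM or more in every replicate, against 50.7% of all genes. Their median was 10.3 FPKM, against 1.31 FPKM over all genes. All genes include 5567 that were listed at 0 in every replicate, so these differences do not set the pathway apart. The fringe and O-glycosylation list had 8 of 9 genes at the threshold, and 4 of 9 at 5 FPKM, against 35.7% of all genes at 5 FPKM. Rfng was highest, then Poglut1 (13.4 ± 0.181 FPKM; SD, n = 3), which glucosylates the receptors, and the xylosyltransferase gene Xxylt1 (7.30 ± 0.643). Eogt (1.87 ± 0.0925) and Gxylt2 (0.161 ± 0.0882) were lowest. Pofut1, which adds the fucose that fringe enzymes extend, stood at 5.26 ± 0.0400 FPKM.

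Genes that act in the ligand-presenting cell were at the threshold in 7 of 7 cases, against 50.7% of all genes. The endocytic adaptor genes Epn1 (62.7 ± 1.83 FPKM; SD, n = 3) and Epn2 (14.0 ± 0.280) and the dynamin gene Dnm2 (22.6 ± 2.09) were highest. Mib1, the ubiquitin ligase that drives ligand endocytosis, stood at 11.3 ± 1.04 FPKM, near Dll1 and Dll3. The Neuralized genes Neurl1a (6.01 ± 0.230) and Neurl1b (1.46 ± 0.138) were lowest.

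Genes that cleave the receptor were at the threshold in 9 of 10 cases, against 50.7% of all genes. Their median was 12.5 FPKM. The gamma-secretase subunit gene Psenen (64.9 ± 3.08 FPKM; SD, n = 3), the protease gene Adam10 (36.9 ± 1.56) and the subunit gene Aph1a (30.2 ± 0.374) were highest, each above Notch1. Aph1b (4.83 ± 0.307) and Aph1c (0.549 ± 0.0525), which are close copies of each other, were lowest, and the split of reads between them is uncertain. Adam17, another protease of the same family, stood at 6.01 ± 0.509 FPKM.

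In the nucleus, Rbpj, the DNA-binding partner of the freed receptor domain, stood at 21.3, 21.4 and 20.7 FPKM in replicates 1, 2 and 3. In the activator list 9 of 10 genes were at the threshold, against 50.7% of all genes. Snw1 (28.5 ± 1.03, SD, n = 3), Rbpj and Crebbp (12.5 ± 0.0866) were highest. The Mastermind-like genes Maml3, Maml1 and Maml2 followed one another at 10.3 ± 0.249, 6.90 ± 0.411 and 3.65 ± 0.146 FPKM. Kat2b (3.60 ± 0.0830) was low, and Rbpjl, the pancreatic paralogue of Rbpj, was listed at 0, 0.0229 and 0 FPKM. All 10 corepressor genes were at the threshold, against 50.7% of all genes. Ctbp1 was highest at 111 ± 1.36 FPKM, then Fhl1 (46.9 ± 1.62) and Ctbp2 (32.3 ± 0.554). L3mbtl3 (4.86 ± 0.459) and Bend6 (4.31 ± 0.220) were lowest.

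Turnover and inhibitor genes had the highest median of the 9 lists, 19.6 FPKM. At the threshold were 14 of 14, against 50.7% of all genes. The ubiquitin ligase gene Nedd4 led at 163 ± 4.13 FPKM (SD, n = 3), followed by the Deltex genes Dtx3 (78.6 ± 5.49) and Dtx4 (31.1 ± 0.925). Numbl (28.4 ± 0.868) lay above Numb (5.53 ± 0.784), related genes that encode inhibitors of Notch. Nrarp, a target gene whose protein limits Notch activity, stood at 18.6 ± 0.995 FPKM. Dtx3l (1.16 ± 0.0476) was lowest.

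Among ligands that lack the usual Delta-like domain set, 7 of 10 were at the threshold, against 50.7% of all genes. Dner, a neuronal membrane protein gene, stood at 32.7 ± 1.26 FPKM (SD, n = 3), the microfibril gene Mfap2 at 27.2 ± 0.819 and the imprinted gene Dlk1 at 23.1 ± 0.516. Each of these 3 stood above Dll1. Mfap5 (0.387 ± 0.0785) and Thbs2 (0.0612 ± 0.0229) were lowest.

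Of the Hes and Hey genes, 5 of 9 (55.6%) were at the threshold, a share near the 50.7% of all genes. Hes5 (24.0 ± 0.688 FPKM; SD, n = 3) and Hes1 (16.8 ± 1.54) are direct targets of Notch in neural progenitors, and Hes6, which is known to oppose Hes1, was highest at 41.6 ± 0.892. Of the proneural factor list, 6 of 8 were at the threshold, among them Neurog2 (18.1 ± 0.942) and Neurod1 (8.70 ± 0.656), while Neurog3 averaged 0.443 ± 0.154 and Atoh1 was listed at 0 in every replicate.

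**Figure D4:**
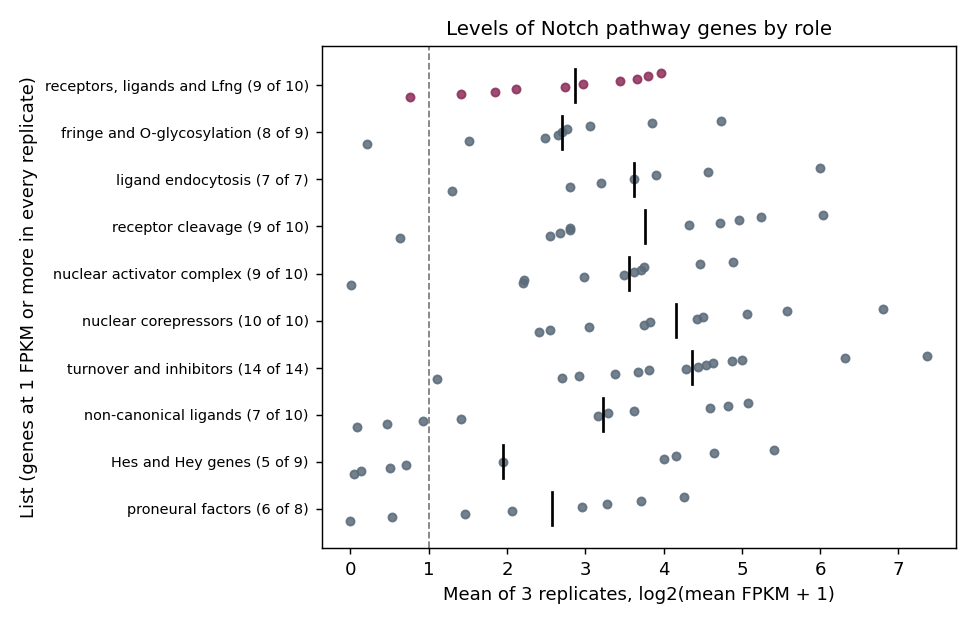
Level of every gene in the pathway lists, as log2(mean FPKM + 1), with the receptors, ligands and Lfng on top. Points are genes, black bars are list medians, the dashed line is 1 FPKM, and the counts beside the names give genes at or above it in every replicate. The corepressor and turnover lists lie furthest to the right, and the Hes and Hey genes are split, with 5 above the line and 4 below it.

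Among the 175 genes of all lists, the level of Notch1 over the 3 libraries was nearest to that of Hey1, a Notch target gene, with a largest difference of 0.09 in log2(FPKM + 1) in any library. Epn2 and Sox1 came next, at 0.13 and 0.16. The level of Dll1 was nearest to Ccnc, Cir1 and Poglut1, with largest differences of 0.03, 0.05 and 0.09. These are likenesses in level over 3 libraries of 1 condition.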

How the data were processed

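The authors deposited 1 value per gene and replicate in a table whose header names no unit. The values were read as FPKM because the submitters' processing notes name Bowtie, Cufflinks and the build mm9; their versions and settings, and whether libraries were scaled to each other, were not stated there. An exact 0 can be a failed estimate, so such genes are said to be listed at 0. A joint set of accessible regions from 3 ATAC-seq samples was not used here, because its mm9 coordinates could not be matched to the gene tables of build GRCm38.p6.

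The 10 genes and all lists were chosen with earlier results of these data known. A gene was counted at the threshold if every replicate had 1 FPKM or more. Log values are log2(FPKM + 1), which understates differences of low genes. Relative depth is the most common ratio of values between 0.001 and 0.1 FPKM, within 0.004 in natural log, taken as equal fragment numbers. It was tested on simulated data in which each value was a read number divided by a set length and depth. The simulation held no scaling between libraries and no Cufflinks estimation, so it cannot say how these affect the ratios. Absolute depth is unknown, so no counting interval is given. Named genes are all 10 members, the 3 highest and 2 lowest of each pathway list, the 3 highest of each marker list and the 3 genes nearest in level to the highest receptor and ligand gene. Genes named beyond this rule, among them Pofut1, Mib1, Adam17, the Mastermind-like genes, Numb, Numbl, Nrarp, Foxn4 and some markers, were chosen after their values were seen. A few genes that this rule selects are not reported here. Python 3.11.15, numpy 2.4.6, pandas 2.3.3 and matplotlib 3.10.9 were used.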

Additional observations from a re-analysis of the deposited data

How the results depend on the processing

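No paired analysis was possible because no 2 groups of samples were compared: the RNA-seq and ATAC-seq samples share only replicate numbers, and the sign-flip test pairs genes within a library. The count of genes at the threshold was 10 of 10 at 0.5 FPKM and 6 of 10 at 5 FPKM, and 9 under upper quartile scaling and without each replicate. The order of the 10 genes was the same under upper quartile scaling and without each replicate, with 8 to 9 of the 9 neighbouring pairs separate; the pair Dll1 and Dll3 separated without replicate 2, and also when the sum of the SDs was used in place of the ranges, which separated 9 pairs. Adding 1 FPKM to each gene put Notch1 at 55.0% of the receptor sum and Dll1 at 34.2% of the ligand sum, since it raises the shares of low genes (Notch4 6.01%, Notch2 15.3%, Dll4 6.55%, Jag1 8.81%). Left-out replicates gave 59.5% to 60.6% for Notch1 and 35.3% to 37.1% for Dll1. Replicate 3 was lowest for 6 genes after upper quartile scaling. Pathway genes at the threshold numbered 77 of 87 at 0.5 FPKM, against 54.4% of all genes, and 59 at 5 FPKM, against 35.7%. At 5 FPKM the fringe and O-glycosylation list had 4 of 9. The alternative for accessible regions was not run. With 3 libraries of unknown depth, low values such as those of Notch4 and Dll4 carry the least precision.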
